A study of Homo sapiens with 20 samples.

Results

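Messenger RNA levels in U2OS cells, an established human osteosarcoma line, were compared between cells given tunicamycin and cells depleted of UPF1, over a time course of blocked transcription. The comparison used 8 of the 20 arrays of the series, chosen by their treatment labels: 4 from tunicamycin-treated cells and 4 from cells carrying a short hairpin against UPF1 (labelled shRent1, after the older gene name Rent1). Tunicamycin was given at 2.5 ug/ml for 3 hr, and the labels give no dose or length for the depletion. Both groups then received the RNA polymerase II elongation inhibitor DRB at 100 ug/ml, and each group has 1 array per time, at 0 hr (no DRB), 1.5, 3 and 4.5 hr. The comparison sets a stress of the endoplasmic reticulum (ER) against a depletion of UPF1, a factor of nonsense-mediated decay. It asks which stress transcripts are high in the one and which in the other. The activity of this decay was not measured in either group. No untreated array entered the comparison itself, so a difference says which group was higher and not which of them moved. Some alternatives given at the end drew on all 20 arrays, the untreated ones among them. The labels name no control hairpin, do not say whether tunicamycin stayed on during DRB, and do not say that the arrays came from separate cultures.

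Tunicamycin blocks the start of N-linked glycosylation, and unfolded glycoproteins then collect in the ER. Sensors in the ER membrane (IRE1, PERK and ATF6) respond by raising the transcription of chaperones and of genes for ER-associated degradation, and PERK slows translation while letting the transcription factor ATF4 be made. ATF4 in turn drives CHOP (the product of DDIT3) and genes of amino acid supply. UPF1 is an RNA helicase that nonsense-mediated decay (NMD) cannot do without. NMD degrades transcripts with premature stop codons and also some normal ones, several of them encoding stress factors such as ATF4. The depletion is therefore aimed at a pathway that acts on some of the same transcripts that ER stress raises.

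Promoters of the genes that stood out are shown because 2 of the known ER stress elements occur in them: ERSE (CCAAT and CCACG with 9 bases of any kind between them) and ERSE-II (ATTGG and CCACG with 1 base between them), searched on both strands of the window from 250 bases before to 50 after each gene's start (RefSeq, GRCh38.p14). The promoter of HSPA5, the gene of the main ER chaperone BiP, lies at chr9:125241294-125241593 on the minus strand, and that of HERPUD1, a gene of ER-associated degradation, at chr16:56931892-56932191 on the plus strand. Capitals mark the ERSE in HSPA5, and in HERPUD1 the ERSE-II and a match to the CEBP-ATF element TGATGNAA on the opposite strand.
HSPA5: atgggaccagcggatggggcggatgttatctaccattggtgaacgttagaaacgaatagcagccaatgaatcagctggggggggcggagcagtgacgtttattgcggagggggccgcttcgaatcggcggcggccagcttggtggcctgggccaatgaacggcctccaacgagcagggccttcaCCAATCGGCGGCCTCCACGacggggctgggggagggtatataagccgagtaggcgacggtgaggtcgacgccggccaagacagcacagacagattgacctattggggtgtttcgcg
HERPUD1: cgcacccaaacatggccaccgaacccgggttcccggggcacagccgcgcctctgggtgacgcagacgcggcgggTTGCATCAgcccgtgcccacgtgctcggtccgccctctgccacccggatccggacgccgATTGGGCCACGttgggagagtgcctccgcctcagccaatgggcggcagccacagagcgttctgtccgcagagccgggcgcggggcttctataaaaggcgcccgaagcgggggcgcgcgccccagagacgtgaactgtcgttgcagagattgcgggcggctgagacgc

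The elements of 7 other genes with a higher level in tunicamycin are given with 6 flanking bases on each side, the element in capitals, on the strand of the gene. XBP1, ERO1B, CRELD2, HSP90B1 and CALR hold an ERSE, and SDF2L1 and HYOU1 an ERSE-II. Where the element lies on the opposite strand it starts with CGTGG and ends with ATTGG for ERSE and with CCAAT for ERSE-II. ERSE and ERSE-II share their parts but not their spacing, and no site printed here was counted for both.
XBP1, chr22:28800597-28800627, 52 bases before the start: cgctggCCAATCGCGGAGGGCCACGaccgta
ERO1B, chr1:236282177-236282207, 243 bases before the start: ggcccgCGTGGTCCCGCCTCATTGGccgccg
CRELD2, chr22:49918548-49918578, 80 bases before the start: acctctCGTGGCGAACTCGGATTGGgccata
HSP90B1, chr12:103930210-103930240, 194 bases before the start: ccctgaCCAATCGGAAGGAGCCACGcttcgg
HSP90B1, chr12:103930315-103930345, 89 bases before the start: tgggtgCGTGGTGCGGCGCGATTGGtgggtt
CALR, chr19:12938378-12938408, 225 bases before the start: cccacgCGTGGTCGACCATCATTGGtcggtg
SDF2L1, chr22:21642108-21642130, 188 bases before the start: cggaagCGTGGACCAATcaaaac
HYOU1, chr11:119057374-119057396, 185 bases before the start: ccgtgaCGTGGTCCAATcccagg
HYOU1, chr11:119057268-119057290, 79 bases before the start: ctgggaCGTGGTCCAATgagtac
Of 11528 tested genes with a promoter window, 14 held an ERSE (0.121%). It occurred in 9 of the 1420 with a higher level in tunicamycin (0.634%) and in 0 of the 2162 with a lower one, against 22 of all 27305 promoters (0.0806%). FICD, TRIM5 and EIF2A, which the ERSE search brought up, complete the 9. ERSE-II was found in 14 tested genes, of which 4 were higher and 1 lower in tunicamycin (0.282% and 0.0463%). The CEBP-ATF element stood in 2.96% of the promoters of higher genes and 2.17% of those of lower genes, against 2% of all tested genes and 3.67% of all promoters. These are matches of letters only.

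UPF1 mRNA was measured by 2 probe sets. The brighter one read 419.5, 400.7, 358.7 and 372 signal units (RMA intensities) in tunicamycin, in the order of the DRB times used throughout, against 169.5, 92.4, 94.7 and 89.42 in UPF1-depleted cells. All 4 depleted arrays lay below all 4 tunicamycin arrays, with 27.7% of the tunicamycin signal on average and an adjusted p of 0.000229 (limma). The dimmer probe set read 102.6 to 126.3 in tunicamycin and 58.11 to 85.21 in depleted cells, 60.5% of the tunicamycin signal on average. Of 10 mesenchymal markers, 9 were above the filter on low signals, COL1A2 being the exception, and their summed signal was 33700 to 36500 in tunicamycin and 32400 to 34100 in depleted cells. Markers of other cell types summed to 553 to 710 and 576 to 731 over 11 measured markers, 8 of them above the filter. The 3'/5' log2 ratio of the ACTB control probe sets was 0.54 ± 0.11 in tunicamycin and 1.24 ± 0.06 in depleted cells (SD, n = 4 each) and that of GAPDH was 0.00 ± 0.04 and 0.07 ± 0.02. The groups did not overlap for either gene: RNA from the depleted cells gave relatively less 5' signal on every array, by far more for ACTB, and the part of this in the differences below was not tested.

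Of 14480 genes tested, 1741 (12%) had a higher and 2655 (18.3%) a lower mean level in tunicamycin than in UPF1-depleted cells. The level difference is the mean of the 4 paired log2 differences, tunicamycin minus UPF1-depleted at the same DRB time, and is given with the SD over the 4 pairs. Genes were called at a limma adjusted p (Benjamini-Hochberg) under 0.05. The gene lists counted below were chosen with earlier results of these data known. The difference exceeded 2-fold for 153 of the higher and 145 of the lower genes, and the median over all genes was 0.01. Groups without overlap were common: of the 14480 genes, 1068 had every tunicamycin array above every depleted one and 2020 below. Quantile normalization turned the split of calls from 39.6% higher to 51.6% higher, and centring on ribosomal protein genes to 49.7%, so the balance of small differences depends on the scaling. With the pair at 3 hr left out 603 genes were higher and 1347 lower, with that at 1.5 hr left out 760 and 1577, against at least 1615 and 2350 without either of the others. Each p-value measures only the scatter of the paired differences, moderated over all genes, and an exact sign-flip test on 4 pairs could not go below 0.125.

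Chaperones and folding enzymes of the ER were seldom lower in tunicamycin. Of 32 tested members 13 were higher in tunicamycin and 1 lower, against 12% and 18.3% of all genes. The median difference was 0.09, because most of the other members lay close to 0. HSPA5 read 15330, 14490, 14850 and 13690 in tunicamycin, against 4091, 4136, 3905 and 3665 in UPF1-depleted cells. Its groups were far apart at every time and hardly moved during 4.5 hr without transcription, which gave a difference of 1.89 ± 0.05 (3.70-fold, adjusted p = 4.31e-05). A second HSPA5 probe set read 1831, 1684, 2000 and 1803 against 368.6, 405.1, 381.2 and 386.8.

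DNAJB9, a co-chaperone of BiP, read 2245, 1286, 784.3 and 484.9 in tunicamycin, against 379.2, 196.5, 65.94 and 32.97 in UPF1-depleted cells. It was higher in tunicamycin at every time, while both groups lost signal throughout (difference 3.18 ± 0.64, 9.07-fold, adjusted p = 0.000172). SDF2L1, a partner of ER co-chaperones, read 3691, 3759, 3642 and 3806, against 1365, 1212, 1160 and 1055 in depleted cells, with a difference of 1.64 ± 0.17. DNAJC3 (1.38 ± 0.12), MANF (1.31 ± 0.14), HYOU1 (1.25 ± 0.20) and CRELD2 (1.02 ± 0.17), all proteins of the ER lumen, were also over 2-fold higher without overlap of the groups. ERO1B, an oxidase that supplies disulfide bonds, read 82.82, 121.9, 126.4 and 124.7 against 33.38, 53.44, 58.13 and 48.63, a difference of 1.25 ± 0.11.

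Smaller differences were found for DNAJB11 (0.80 ± 0.06), HSP90B1 (0.55 ± 0.16), SELENOK (0.49 ± 0.10) and PDIA3 (0.49 ± 0.14). CALR, the lectin chaperone calreticulin, passed with 0.42 ± 0.26, but not without the pair at 0 hr (adjusted p = 0.0623) or at 3 hr (adjusted p = 0.11). Several abundant folding enzymes did not pass: PDIA6 had a difference of 0.18 ± 0.14, PDIA4 0.14 ± 0.19 and calnexin (CANX) -0.07 ± 0.13. FKBP14, a prolyl isomerase of the ER, was the member with a lower level in tunicamycin (-0.44 ± 0.18), though not without the pair at 1.5 hr (adjusted p = 0.0578) or 3 hr (adjusted p = 0.0623). The ER chaperone genes thus divided into a strongly higher set led by DNAJB9 and HSPA5 and a larger set with little difference.

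**Figure D1:**
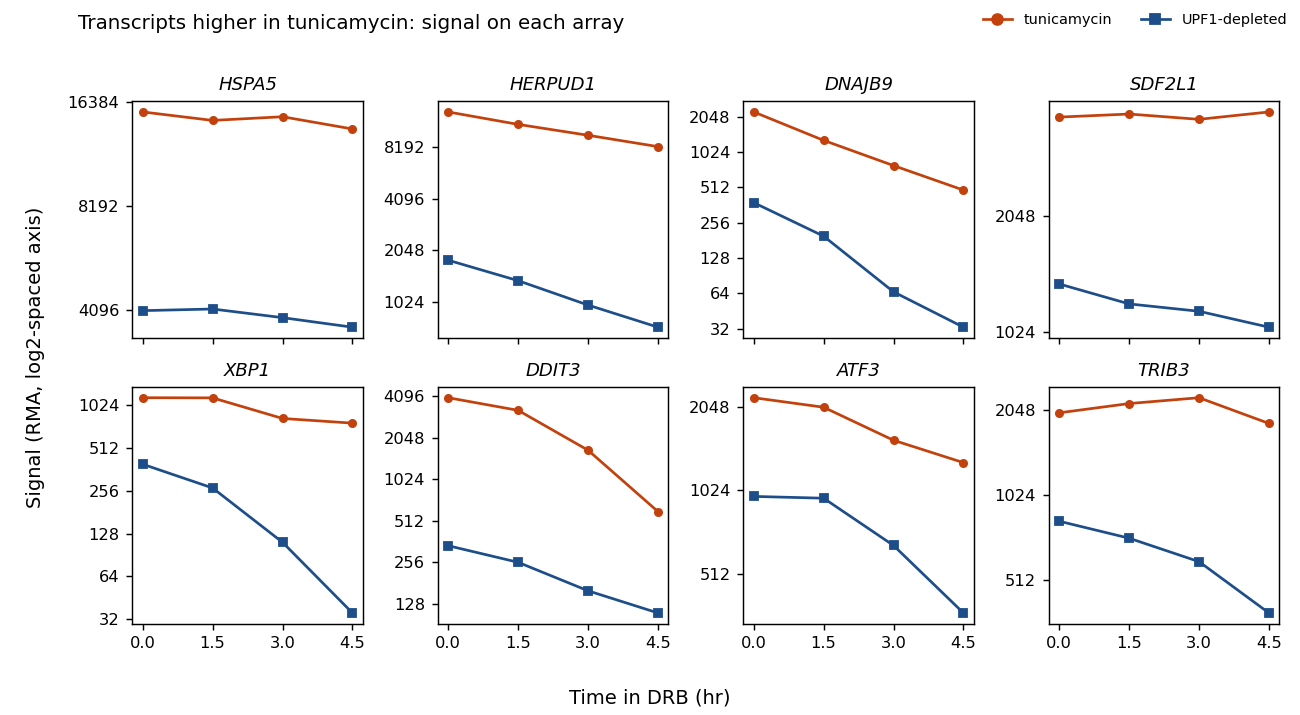
RMA signal on a log2-spaced axis against time in DRB (hr) for 8 transcripts, 1 point per array, tunicamycin in orange circles and UPF1-depleted cells in blue squares. Every tunicamycin point lies above the UPF1-depleted point of the same time; HSPA5 ends at 13690 against 3665, while XBP1 in depleted cells ends at 35.48.

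Among 14 tested sensors and transcription factors of the ER stress response, 6 were higher in tunicamycin and 3 lower, against 12% and 18.3% of all genes. XBP1, the factor whose mRNA is spliced by IRE1, read 1152, 1149, 823.7 and 763.7 in tunicamycin, against 392.9, 267.6, 111.2 and 35.48 in UPF1-depleted cells. Its tunicamycin arrays were all above the depleted ones, and the gap widened with time (difference 2.74 ± 1.25, adjusted p = 0.00207). A second, dim XBP1 probe set differed by -0.02 ± 0.53 and showed no constant direction. The probe sets used do not tell spliced from unspliced XBP1.

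EIF2AK3, which encodes PERK, read 984.7, 625.4, 449.7 and 276.5 in tunicamycin, against 334.6, 320.6, 219.9 and 139.6 in depleted cells. It was higher at each time, most so at 0 hr (difference 1.14 ± 0.28, adjusted p = 0.00062). NFE2L2 (0.88 ± 0.38), ATF6 (0.52 ± 0.14) and ATF6B (0.37 ± 0.07) were higher by less. ATF6 depended on the probe set: the median of its probe sets gave -0.22. ATF6B did not pass without the pair at 1.5 hr (adjusted p = 0.0703). ATF4 went the other way, together with WFS1 (-0.55 ± 0.22), whose ER membrane protein wolframin dampens the ATF6 arm, and MBTPS1 (-0.55 ± 0.14), the site-1 protease that cleaves ATF6. These 3 lower genes passed in every fit with a pair left out.

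ER-associated degradation, which passes misfolded proteins back to the cytosol for the proteasome, had members called in both directions. Of 23 tested members 5 were higher and 5 lower in tunicamycin, with a median of 0.03. Of all genes 12% were higher and 18.3% lower, so the share of lower members was near that of all genes. HERPUD1, an ER membrane protein that helps to assemble the degradation complex, read 13050, 11050, 9553 and 8208 in tunicamycin, against 1796, 1366, 986 and 733.3 in UPF1-depleted cells. The groups did not come near each other at any time, and the difference of 3.16 ± 0.28 (8.94-fold) had the smallest adjusted p of all genes (3.49e-05). SEL1L, the adaptor of the HRD1 ubiquitin ligase, was higher by 0.81 ± 0.20, and DERL2, a derlin of the same channel, by 0.50 ± 0.13.

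The differences of the lower members were smaller. EDEM3, a mannosidase that marks glycoproteins for degradation, read 206.6, 198.1, 156.8 and 166.2 in tunicamycin, against 256, 320.8, 327.5 and 316.1 in depleted cells. All its tunicamycin arrays were below the depleted ones (difference -0.75 ± 0.33, adjusted p = 0.0041). UBXN4 (-0.38 ± 0.15), EDEM2 (-0.33 ± 0.21) and FAF2 (-0.29 ± 0.10) passed by less, as did RNF139, a ubiquitin ligase, upward (0.61 ± 0.46). Without the pair at 3 hr none of these 4 passed (adjusted p = 0.0657, 0.161, 0.134 and 0.0995), and without the pair at 1.5 hr UBXN4, EDEM2 and FAF2 did not (adjusted p = 0.0899, 0.147 and 0.113). Leaving out the pair at 4.5 hr, EDEM2 and FAF2 gave adjusted p = 0.0665 and 0.0591. EDEM1 (-0.21 ± 0.16) and SELENOS (0.31 ± 0.22) did not pass. Of 30 tested genes of N-glycosylation, the process that tunicamycin blocks, 1 was higher and 7 lower, a share of lower genes near the 18.3% of all genes. Among the lower ones were the oligosaccharyltransferase subunit DAD1 (-0.65 ± 0.04), ALG14 (-0.56 ± 0.18) and DOLPP1 (-0.50 ± 0.15).

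CHOP and ATF4 effectors, the genes through which the PERK arm acts, were mostly higher in tunicamycin. Of 33 tested members 19 were higher and 4 lower, against 12% and 18.3% of all genes, with a median of 0.28. The 19 fell to between 11 and 15 when a pair was left out, to 10 with the _s_at and _x_at probe sets left out, and to 6 without the pairing by DRB time. DDIT3 itself read 3994, 3234, 1662 and 596.5 in tunicamycin, against 337, 255.4, 158.7 and 109.6 in UPF1-depleted cells. It had the largest level difference of all genes called, 3.27 ± 0.56 (9.62-fold, adjusted p = 0.000118), with the lowest tunicamycin array above the highest depleted one. TRIB3, a pseudokinase induced by ATF4 and CHOP, read 2009, 2167, 2273 and 1842 against 828, 720.7, 594.9 and 391.1 (1.76 ± 0.42).

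CEBPB and CEBPG, bZIP partners of ATF4 and CHOP, were higher by 1.42 ± 0.40 and 0.97 ± 0.48. PPP1R15A, whose product GADD34 directs the removal of the eIF2 alpha phosphate, was higher by 0.62 ± 0.10. DDIT4 (2.32 ± 1.42), SESN2 (1.53 ± 1.21) and CHAC1 (1.11 ± 1.12) had means with wide scatter over the pairs, because the difference was large at 0 hr and small at 4.5 hr. SESN2 and CHAC1 did not pass without the pair at 0 hr (1.17, adjusted p = 0.0512, and 0.65, adjusted p = 0.091) or at 1.5 hr (adjusted p = 0.0669 and 0.129), and CHAC1 also not without that at 3 hr (adjusted p = 0.113).

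NUPR1, a small stress-induced chromatin protein, was 1 of the 4 effectors in the opposite direction, with ATF5, JDP2 and GDF15. It read 653.2, 762.7, 815.4 and 989.2 in tunicamycin, against 1223, 1361, 1594 and 1685 in depleted cells, with every tunicamycin array below every depleted one (-0.87 ± 0.09, adjusted p = 0.00045). JDP2, a bZIP repressor, had a difference of -0.50 ± 0.29, and GDF15, a secreted stress cytokine, one of -0.71 ± 0.61. GDF15 was at 141.4 in tunicamycin and 126.6 in depleted cells at 0 hr and at 46.18 and 94.79 at 4.5 hr, so the arrays at 0 hr did not show the lower level. JDP2 did not pass without the pair at 3 hr (adjusted p = 0.0879), and GDF15 passed only without the pair at 0 hr (adjusted p = 0.0892, 0.157 and 0.0718 without those at 1.5, 3 and 4.5 hr).

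**Figure D2:**
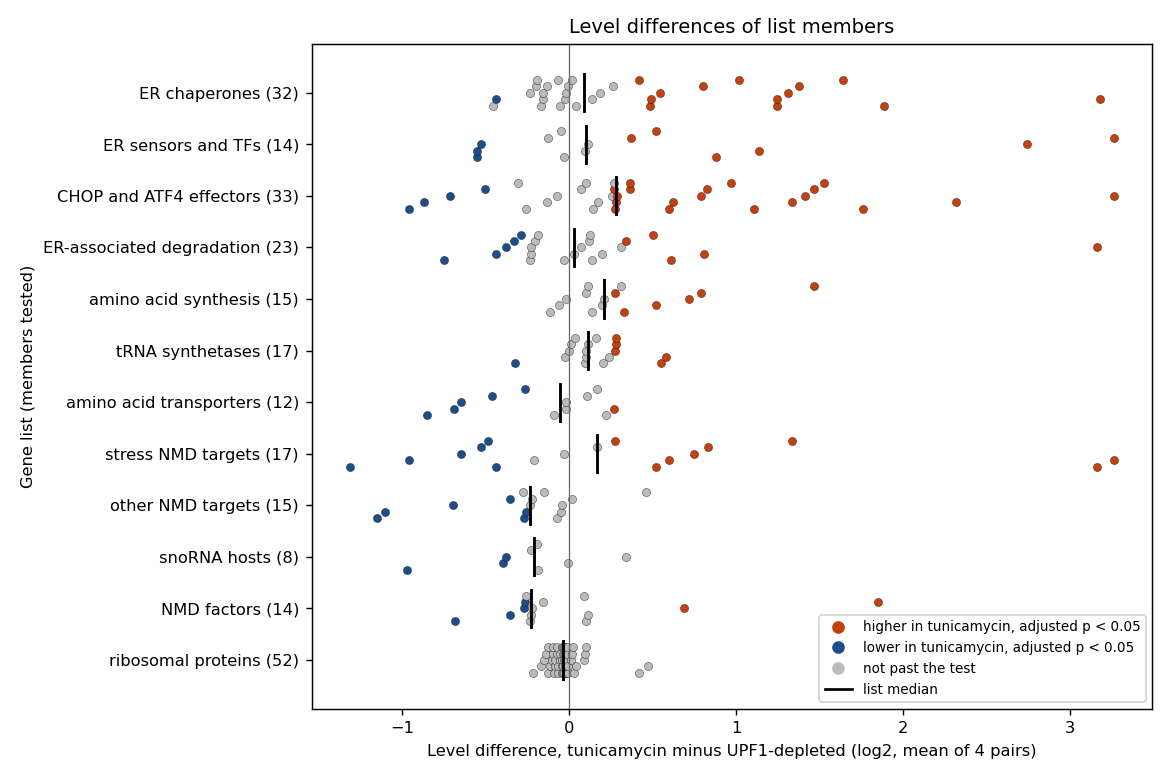
Level difference, tunicamycin minus UPF1-depleted (log2, mean of 4 pairs), of every tested member of 12 gene lists, 1 point per gene; orange passed the test as higher in tunicamycin, blue as lower, grey did not pass, and the black bar is the list median. DDIT3, at 3.27, is the rightmost point of the 3 lists that hold it; 19 of 33 CHOP and ATF4 effectors are orange, and the 52 ribosomal protein genes stay around -0.04 with none past the test.

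Genes of amino acid supply, which ATF4 controls, did not move as a group. Against 12% higher and 18.3% lower of all genes, in amino acid and one-carbon synthesis 6 of 15 were higher in tunicamycin and 0 lower (median 0.21). Among them CTH, which makes cysteine, read 343, 305.3, 295.3 and 400.8 in tunicamycin, against 104.7, 118.3, 143.1 and 120 in depleted cells. Its groups lay well apart (1.47 ± 0.33, adjusted p = 0.000333), and so did those of the mitochondrial enzyme PCK2 (0.79 ± 0.20) and of asparagine synthetase, ASNS (0.52 ± 0.08). CBS, the enzyme before CTH, was higher by 0.33 ± 0.04, but not past the test without the pair at 1.5 hr (adjusted p = 0.079) or 3 hr (adjusted p = 0.0664).

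Of 17 tested aminoacyl-tRNA synthetases 5 were higher and 1 lower, against 12% and 18.3% of all genes. Only 2 of the synthetases were higher when the pair at 1.5, 3 or 4.5 hr was left out. AARS1 (0.58 ± 0.12) and FARSA (0.55 ± 0.27) led, and EPRS1 was the lower one (-0.32 ± 0.06), which did not pass without the pair at 1.5 hr (adjusted p = 0.101) or 3 hr (adjusted p = 0.0709). Amino acid transporters leaned the other way, with 1 of 12 higher and 5 lower in tunicamycin, against the same 12% and 18.3%. SLC7A6, a transporter of cationic and neutral amino acids, read 866.4, 716.3, 776.6 and 613.4 in tunicamycin, against 1351, 1436, 1349 and 1200 in depleted cells, without overlap (-0.85 ± 0.17, adjusted p = 0.000781). SLC36A4 (-0.69 ± 0.19) and SLC38A1 (-0.65 ± 0.13) were lower as well. The leucine transporter SLC7A5 (-0.26 ± 0.08) and its partner SLC3A2 (0.27 ± 0.06) passed in opposite directions, SLC7A5 with a pair left out only without that at 0 hr (adjusted p = 0.144, 0.143 and 0.0782 without the others) and SLC3A2 in no fit with a pair left out (adjusted p = 0.0594 to 0.119).

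Stress transcripts that are established or proposed NMD targets did not go one way. Of 17 tested members 8 were higher in tunicamycin and 6 lower, against 12% and 18.3% of all genes, with a median of 0.16. Without the pairing by DRB time 5 members were higher and 3 lower. On the tunicamycin side stood DDIT3 and HERPUD1, then ATF3, a stress-induced repressor, which read 2215, 2046, 1554 and 1290 against 973.5, 959.1, 647 and 368.8 in UPF1-depleted cells. Its groups did not overlap, all 3 ATF3 probe sets were higher in each of the 4 pairs, and the difference was 1.34 ± 0.32 (2.53-fold, adjusted p = 0.000445). GADD45A, a growth arrest gene, read 9254, 8565, 6725 and 6779 against 7428, 5024, 3463 and 2779. It was higher at each time, least so at 0 hr (0.83 ± 0.41, adjusted p = 0.0046).

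UPP1, a uridine phosphorylase (0.75 ± 0.07), the cell cycle inhibitor CDKN1A (0.60 ± 0.12) and ASNS were also higher in tunicamycin. CARS1, the cysteinyl-tRNA synthetase, passed with 0.28 ± 0.13, but only without the pair at 0 hr when a pair was left out (adjusted p = 0.129, 0.154 and 0.0988 without those at 1.5, 3 and 4.5 hr).

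The 6 lower transcripts were GADD45B, ATF5, MAP3K14, ATF4, TBL2 and IFRD1. ATF4 read 10250, 9996, 8861 and 8166 in tunicamycin, against 13860, 13650, 13740 and 12330 in UPF1-depleted cells. The depleted cells thus held more ATF4 mRNA on every array; of the effectors above, 19 were lower there, such as DDIT3, and 4 higher, such as NUPR1 (ATF4 difference -0.53 ± 0.10, adjusted p = 0.00303). ATF5, a relative of ATF4, read 253.7, 209.2, 157.6 and 164.5 against 367.8, 380.1, 403.5 and 348.4. Its groups were also apart, and more so after 0 hr (-0.96 ± 0.35, adjusted p = 0.00175).

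GADD45B, a relative of GADD45A, read 1643, 394.2, 106.1 and 70.67 in tunicamycin, against 2113, 1027, 412.1 and 207.7 in depleted cells. Both groups lost most of it after DRB, and the tunicamycin array was the lower at each time (-1.31 ± 0.68, adjusted p = 0.00401). Of its 4 probe sets 3 were lower in all pairs and the dimmest differed by -0.04 ± 0.12. TBL2, an ER membrane protein that binds PERK, read 935.3, 798.1, 770.1 and 688.7 against 1378, 1233, 1007 and 887.4 (-0.49 ± 0.13). It was lower at each time, as was IFRD1, a transcriptional coregulator, with 969.4, 1073, 1012 and 1077 against 1443, 1472, 1418 and 1278 (-0.44 ± 0.14). MAP3K14, a kinase of NF-kappaB signalling (-0.65 ± 0.43), did not pass without the pair at 3 hr (adjusted p = 0.0899). Neither NAT9 (-0.21 ± 0.19) nor the cystine transporter SLC7A11 (0.16 ± 0.03) passed, and the median of the SLC7A11 probe sets gave -0.27.

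**Figure D3:**
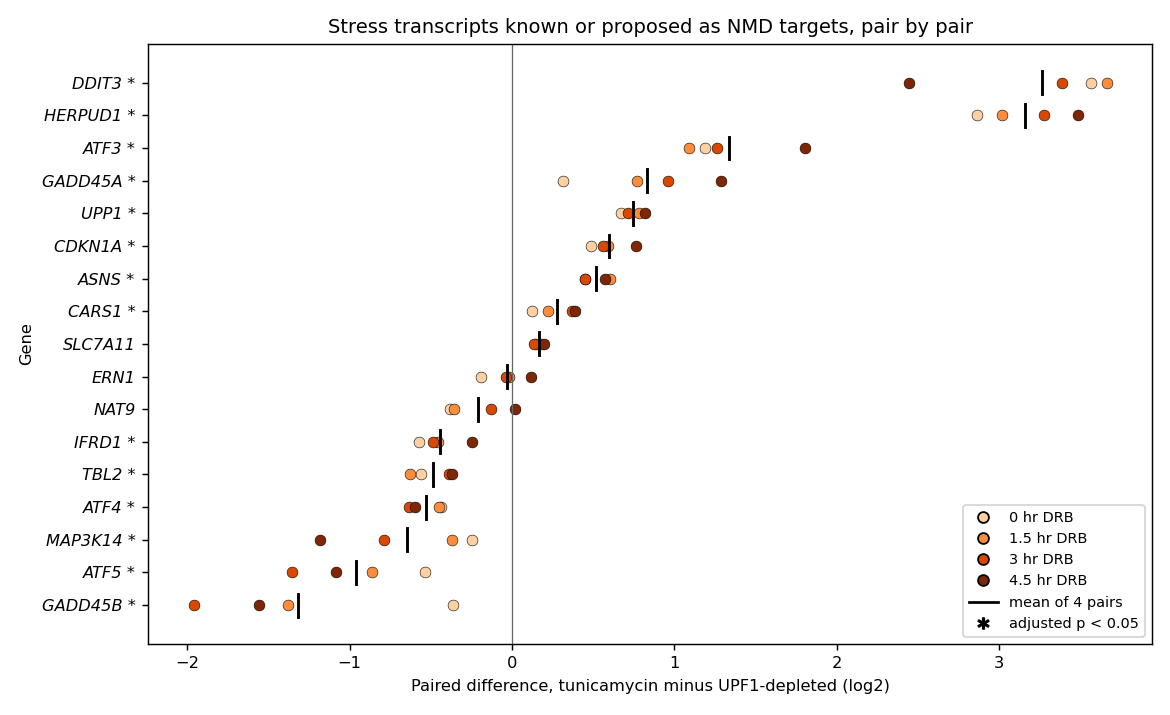
Paired difference, tunicamycin minus UPF1-depleted (log2), of each stress transcript that is an established or proposed NMD target, 1 point per DRB time (darker is later) with the mean of the 4 pairs as a black bar; a star marks an adjusted p under 0.05. DDIT3 and HERPUD1 lie near 3.2, and all pairs of GADD45B, ATF5, MAP3K14, ATF4, TBL2 and IFRD1 lie below 0.

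The other transcripts known or proposed as NMD targets had none higher in tunicamycin and 6 of 15 lower, with a median of -0.23. This list too was chosen with earlier results of these data known, so its counts may not be independent of them. Of all genes 12% were higher and 18.3% lower. The count of lower members was 3 without the pair at 1.5 hr or at 3 hr. The lower genes among all tested fell likewise, from 2655 to 1577 and 1347. BAG1, a co-chaperone of HSP70, read 832.2, 948.4, 941.3 and 1135 in tunicamycin, against 1923, 1942, 2280 and 2402 in UPF1-depleted cells. The depleted arrays were all higher, by about the same factor at each time (-1.15 ± 0.11, 2.22-fold over tunicamycin, adjusted p = 0.000229). GABARAPL1, an autophagy protein of the ATG8 family, read 179.7, 261.6, 223 and 273.3 against 437.8, 459.8, 548.9 and 551, again without overlap (-1.10 ± 0.23, 2.15-fold over tunicamycin). ANTXR1, a cell surface receptor, was lower by the same pattern (-0.69 ± 0.15).

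RNAs that host small nucleolar RNAs in their introns, several of which are degraded by NMD once spliced, included 3 of 8 tested that were lower in tunicamycin and 0 higher. Of all genes 18.3% were lower and 12% higher. EPB41L4A-AS1 read 1527, 1447, 1266 and 1432 in tunicamycin, against 3182, 2889, 2608 and 2484 in depleted cells. Its groups did not overlap, with 1.96-fold more in the depleted cells (-0.97 ± 0.12, adjusted p = 0.000341). SNHG17 (-0.40 ± 0.22) and SNHG32 (-0.38 ± 0.14) were lower as well, but neither passed without the pair at 1.5 hr (adjusted p = 0.101 and 0.0585) or 3 hr (adjusted p = 0.0918 and 0.0638), nor SNHG17 without that at 0 hr (adjusted p = 0.0615). ZFAS1, at -0.19 ± 0.04, was lower in all pairs and did not pass. The GAS5 probe set lay below the filter and was not tested; it read 22.1, 17.73, 23.6 and 20.39 in tunicamycin and 32.51, 23.02, 25.73 and 30.78 in depleted cells.

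Genes of the NMD machinery besides UPF1 differed by less than UPF1 itself. Of 14 tested factors, UPF1 included, 2 were higher in tunicamycin and 4 lower, against 12% and 18.3% of all genes. The higher factors were UPF1 itself and GSPT2, a relative of the release factor eRF3a (0.69 ± 0.28). The lower ones were SMG8 (-0.69 ± 0.40) and SMG9 (-0.35 ± 0.24), which regulate the kinase that phosphorylates UPF1, SMG5 (-0.27 ± 0.09), which binds phosphorylated UPF1, and the helicase DHX34 (-0.26 ± 0.09). None of these 4 passed without the pair at 3 hr (adjusted p = 0.0543, 0.108, 0.143 and 0.0981), and SMG8 alone of them did without that at 0 hr or 1.5 hr. DHX34 also changed sign with the median of its probe sets (0.21). UPF2 did not pass (-0.23 ± 0.17). SMG5 and SMG9 were counted among the other NMD targets too, with RBM3, a cold-induced RNA-binding protein (-0.26 ± 0.09); neither SMG5 nor RBM3 passed in any fit with a pair left out (adjusted p = 0.0513 to 0.156). Of 7 tested genes of the exon junction complex 1 was higher in tunicamycin, a share near the 12% of all genes. This gene, RNPS1 (0.59 ± 0.32), did not pass without the pair at 3 hr (adjusted p = 0.0628).

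**Figure D4:**
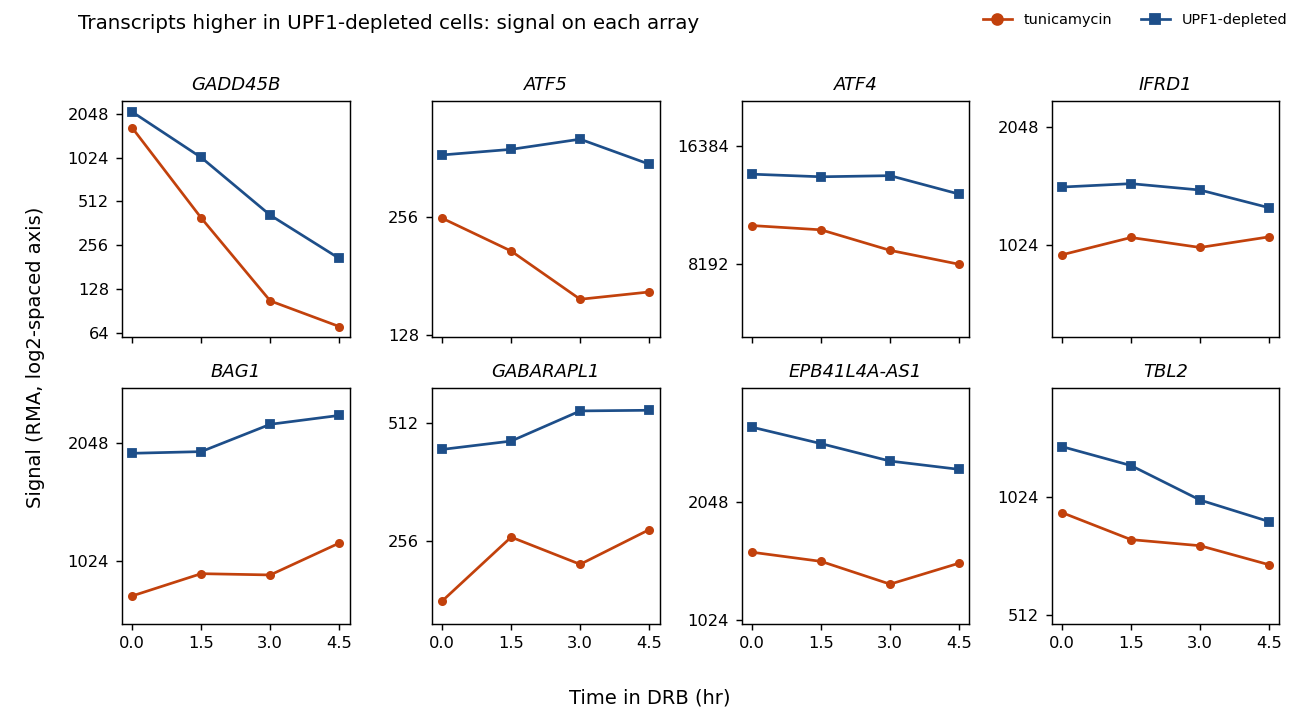
RMA signal on a log2-spaced axis against time in DRB (hr) for 8 transcripts with a lower level in tunicamycin, 1 point per array, tunicamycin in orange circles and UPF1-depleted cells in blue squares. In each panel the UPF1-depleted point lies above the tunicamycin point of the same time, at 3182 against 1527 for EPB41L4A-AS1 at 0 hr.

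Among the 10 highest level differences of all genes, 5 belonged to the lists above: DDIT3, DNAJB9, HERPUD1, XBP1 and DDIT4. The others were TIFA, an adaptor of NF-kappaB signalling (2.86 ± 1.79), the bZIP factor NFIL3 (2.76 ± 0.87), the small GTPase RAB39B (2.63 ± 0.89), the cytokine TSLP (2.56 ± 0.57) and PHLDA1 (2.34 ± 0.30). TSLP read 195, 157.3, 144.9 and 233.1 in tunicamycin, against 44.41, 35.37, 24.21 and 22.84 in depleted cells, where the signal was around the filter of 25.9. In depleted cells at 4.5 hr NFIL3 read 19.09, TIFA 27.04, RAB39B 32.51, DNAJB9 32.97 and XBP1 35.48, also near the filter. The part of such a floor in the size of these differences was not tested. TIFA did not pass without the pair at 3 hr (adjusted p = 0.0595).

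At the other end, IGF2BP3, an RNA-binding protein, read 41.14, 30.04, 37.9 and 41.9 in tunicamycin, against 151.9, 215.6, 226.5 and 209.8 in UPF1-depleted cells. It had the lowest level difference of the genes called, without overlap (-2.41 ± 0.41, 5.31-fold over tunicamycin, adjusted p = 0.000125). Its tunicamycin signals were near or below the medians of those arrays (39.1 to 40.3), so the size of this difference is uncertain. The matrix metalloproteinase gene MMP3 read 352.3, 268.3, 329.5 and 382.7 against 1030, 1202, 1384 and 1328 (-1.89 ± 0.28). SLC35G1 (-1.90 ± 0.08), INSIG1, which holds the sterol sensor SCAP in the ER (-1.87 ± 0.66), the decoy receptor TNFRSF11B (-1.73 ± 0.98), the ubiquitin ligase RNF145 (-1.66 ± 0.63) and ZNF790-AS1 (-1.65 ± 0.27) followed. The pseudogenes SEPTIN7P2 (-2.12 ± 0.25), CROCCP2 (-1.99 ± 0.54) and AFG3L1P (-1.64 ± 0.38) were among the 10, and probes for them may read related genes; the median of the CROCCP2 probe sets gave 0.11.

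The change after DRB differed for fewer genes. A slope difference, in log2 per hr, is positive where the tunicamycin signal dropped less, or climbed more, per hour than the UPF1-depleted one. It was positive for 243 genes (1.68%) and negative for 39 (0.269%), with a median of 0.01 over all 14480. Without the pair at 4.5 hr the counts were 230 and 153, and without that at 0 hr 119 and 28. They were 60 and 10 after quantile normalization and 91 and 9 without the pairing by DRB time. In the ER and NMD lists 1 of the 32 ER chaperones and 1 of the 14 sensors and factors were positive. So were 1 of 15 other NMD targets and 1 of 8 snoRNA hosts. Each of these shares was above the 1.68% of all genes, but rested on 1 gene. CHOP and ATF4 effectors had 1 positive and 3 negative of 33, against 1.68% and 0.269% of all genes. None of the stress NMD targets, NMD factors or genes of ER-associated degradation was called.

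DDIT4, an inhibitor of mTORC1, had the lowest slope difference. It read 5517, 976.2, 112.4 and 67.59 in tunicamycin, against 351.8, 129.7, 36.52 and 39.98 in UPF1-depleted cells. The large excess in tunicamycin at 0 hr was thus nearly gone at 4.5 hr, where both signals were low (-0.73 ± 0.05 log2 per hr, SE, adjusted p = 0.000202). SESN2, a stress-induced regulator of the same pathway, read 2451, 1270, 229.5 and 156.1 against 406.2, 218.6, 142.6 and 127.8 (-0.59 ± 0.08, SE). CHAC1, which degrades glutathione, read 915.5, 195.8, 62.79 and 43.57 against 164.3, 72.36, 39.67 and 47.96 (-0.58 ± 0.05, SE). All 3 ended near the depleted level, so their excess was present before DRB and mostly gone at 4.5 hr. From 3 hr the depleted signals of DDIT4 and CHAC1 were near the medians of those arrays (37.9 and 38.6). The part of such a floor in their slope differences was not tested. At 4.5 hr HSPA5 still read 13690 against 3665 and HERPUD1 8208 against 733.3.

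The immediate early transcript EGR1 had the same course, with 5932, 1378, 384.7 and 435.7 in tunicamycin, against 847, 688.2, 419.4 and 455.6 in depleted cells (-0.65 ± 0.10, SE). It did not pass without the pair at 0 hr (-0.36, adjusted p = 0.0631). DUSP1 (-0.46), TRIB1 (-0.39) and HES1 (-0.39), all short-lived transcripts of signalling, began closer together and ended lower in tunicamycin. TRIB1 and HES1 did not pass without the pair at 0 hr (-0.24, adjusted p = 0.59, and -0.14, adjusted p = 1), nor HES1 without that at 3 hr (adjusted p = 0.1). B4GALT5, a glycosyltransferase gene, read 1272, 726.6, 289.8 and 200.8 against 1823, 1675, 1320 and 1119, so the tunicamycin cells lost it faster (-0.46 ± 0.06, SE). RASSF10, a RAS association domain gene, read 11.5, 12.22, 23.45 and 43.51 in tunicamycin, against 13.24, 12.28, 98.64 and 248 in depleted cells, with signals under the filter at the start and a later increase in both (-0.60 ± 0.10, SE). KIAA0754 read 106.1, 11.92, 16.25 and 30.37 against 81.13, 15.19, 42.82 and 106.3, with several signals under the filter, so the size of its slope difference (-0.51 ± 0.06, SE) is uncertain. RASSF10 did not pass without the pair at 3 hr (adjusted p = 0.0578).

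The transcripts with the highest slope differences lost more signal in the UPF1-depleted cells. TIFA read 1188, 1219, 987.8 and 786 in tunicamycin, against 647.3, 318, 72.12 and 27.04 in depleted cells (0.92 ± 0.06 log2 per hr, SE, adjusted p = 0.000127). XBP1 had the same form, with a slope difference of 0.63 ± 0.07 (SE, adjusted p = 0.00166). RND3 read 3139, 2208, 1146 and 656.6 against 2732, 1022, 210.8 and 89.54 and was thus near equal at 0 hr (0.62 ± 0.06, SE). AUNIP, TIMM9, TIGD1, CMTR2, YAE1 and MRPS31 had slope differences of 0.53 to 0.55, and the depleted signal of each dropped from every time to the next. The tunicamycin signal of TIMM9 meanwhile went up (863.5 at 0 hr and 1293 at 4.5 hr) and that of TIGD1 and AUNIP down. MRPS31 was 604.4, 623.2, 651.3 and 583.1 against 499.1, 407.2, 215.1 and 96.81. TCIM (0.59) completed the 10 highest but was lower in tunicamycin at 0 hr (58.42 against 147.3), and it did not pass without the pair at 0 hr (0.29, adjusted p = 0.261) or 3 hr (adjusted p = 0.0612).

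DNAJB9 (0.32 ± 0.06, SE, adjusted p = 0.0154) was the ER chaperone with a called slope, and the median of its probe sets gave -0.08. CEBPG, the positive one of the ATF4 effectors, read 1091, 1219, 1147 and 1142 in tunicamycin, against 841.3, 660.8, 534 and 396.6 in depleted cells. It was level in the one and fell in the other (0.25 ± 0.05, SE), but passed without the pair at 1.5 hr only (adjusted p = 0.775, 0.0537 and 0.145 without those at 0, 3 and 4.5 hr). CLK1, a kinase of splicing factors whose transcripts keep introns, ended at 32.55 against 10.62, both under or near the filter (0.43 ± 0.07, SE), and WDR43, a snoRNA host of ribosome synthesis, at 1268 against 549.3 (0.33 ± 0.05, SE). CLK1 did not pass without the pair at 3 hr (adjusted p = 0.0561), nor WDR43 without that at 4.5 hr (adjusted p = 0.101).

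**Figure D5:**
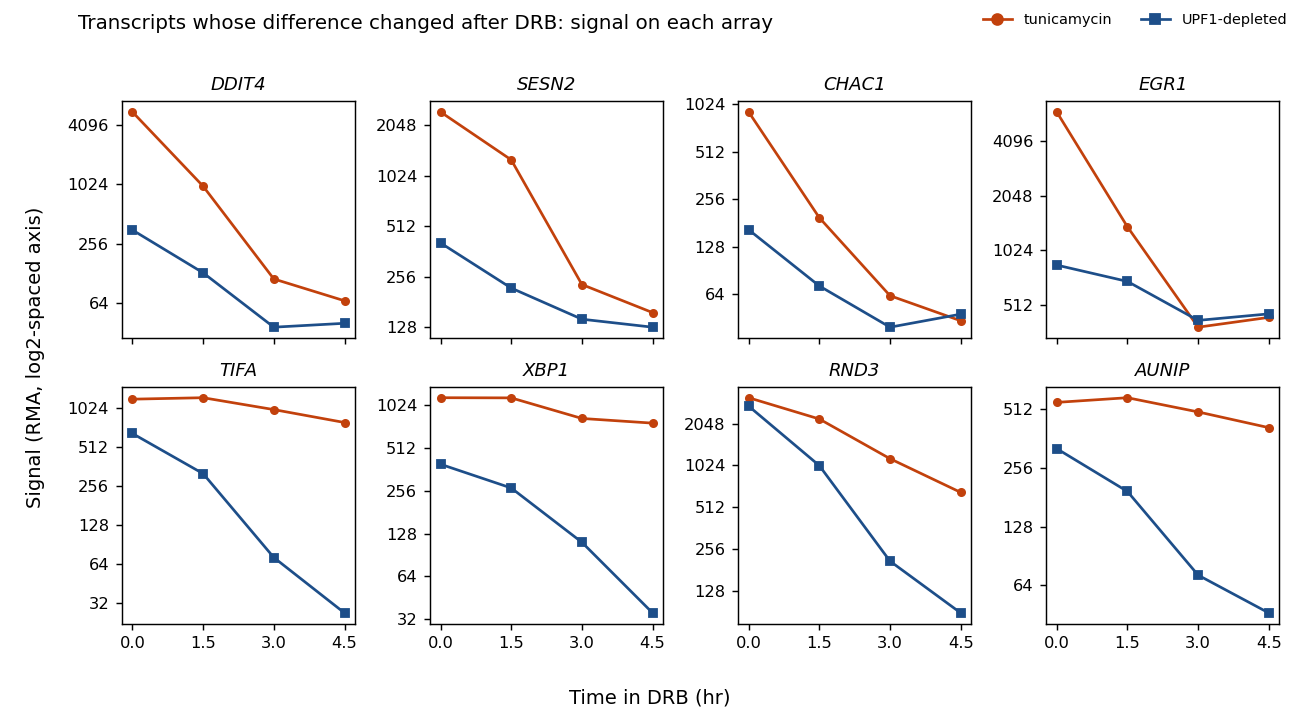
RMA signal on a log2-spaced axis against time in DRB (hr) for 8 transcripts with a called slope difference, 1 point per array, tunicamycin in orange circles and UPF1-depleted cells in blue squares. In the top row the groups start apart and meet (DDIT4 5517 against 351.8 at 0 hr, 67.59 against 39.98 at 4.5 hr); in the bottom row they draw apart as the depleted cells lose signal (TIFA 786 against 27.04 at 4.5 hr).

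Lists outside the ER and NMD pathways, here and in the next paragraph, stand beside all 14480 genes, of which 12% were higher and 18.3% lower. None of 52 tested ribosomal protein genes was called (median -0.04; RPS25, with the largest statistic, differed by -0.21 ± 0.11, adjusted p = 0.0855). Cytosolic heat shock genes had 0 of 21 higher and 7 lower in tunicamycin, led by ZFAND2A with 1168, 1266, 1336 and 1589 against 3054, 2960, 3172 and 3127 in depleted cells (-1.21 ± 0.17), DNAJB6 (-0.85 ± 0.17) and the small heat shock protein CRYAB (-0.80 ± 0.10). Histone genes had 1 of 17 higher and 7 lower, among them H2AX (-0.64 ± 0.17), H2BC9 (-0.63 ± 0.17) and H2BC12 (-0.51 ± 0.05). The respiratory chain had 0 of 59 higher and 8 lower, a share of lower genes not above the 18.3% of all genes. All its lower differences were small, as for COX7A2 (-0.35 ± 0.10) and NDUFA3 (-0.35 ± 0.07). Neither passed without the pair at 1.5 hr (adjusted p = 0.0975 and 0.0622) or 3 hr (adjusted p = 0.0727 and 0.0648).

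Immediate early and AU-rich transcripts were divided, with 10 of 43 higher and 11 lower. The inflammatory genes CXCL8 (1513, 1544, 1400 and 1741 in tunicamycin, against 560.3, 339.6, 383.7 and 394.5 in depleted cells; 1.91 ± 0.35) and PTGS2 (1.73 ± 0.37) and the antiproliferative BTG1 (1.42 ± 0.31) were higher. Among p53 targets 7 of 26 were higher, CDKN1A included, and 5 lower, among them ZMAT3 (-0.81 ± 0.09) and RRM2B (-0.64 ± 0.23). HIF targets had 3 of 42 higher and 9 lower, such as ZNF395 (-0.73 ± 0.17) and the glycolytic regulator PFKFB3 (-0.56 ± 0.21). The shares of lower genes among p53 and HIF targets were near the 18.3% of all genes. In the cholesterol and SREBP list 4 of 22 were higher, STARD4 among them (0.97 ± 0.09), and 6 lower, with INSIG1 and the desaturase SCD (1605, 1490, 1384 and 1606 against 2998, 3371, 3171 and 3222; -1.07 ± 0.14). MMP9 (1.59 ± 0.15) and the alkaline phosphatase ALPL (1.31 ± 0.29) were higher and S100A4 (-0.92 ± 0.13) lower among 20 tested mesenchymal genes, of which 6 were higher and 3 lower. Both ALPL and PTGS2 were dim in depleted cells, at 40.05 to 57.95 and 40.23 to 59.5, against a filter of 25.9. The replication factor CDC6 was higher (0.91 ± 0.33), in a list with 5 of 29 higher and 6 lower, a share of lower genes near that of all genes.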

How the data were processed

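Per the labels' protocols, extracted total RNA was amplified, labelled as cRNA and hybridized to 3' expression arrays. For each of 54675 probe sets on 20 arrays the authors deposited a linear intensity made with RMA, per the submitters' processing notes, where no version is given. RMA corrects background, normalizes between arrays and summarizes probes, so a loss of mRNA shared by all transcripts after DRB is removed and every level is relative to its array. The number of arrays limits the precision.

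The 8 arrays' intensities, as deposited by the authors, were taken to log2. Probe sets with 1 gene symbol in the platform annotation (41091, for 19775 genes) were used. The probe set with the highest mean over the 8 arrays stood for a gene, and genes above the 40th percentile of probe set means (log2 4.70, or 25.9 linear) were tested. Because detection calls were not used, low signals mark a floor. limma 3.58.1 in R 4.3.3 (lmFit, eBayes) fitted DRB time as a factor with condition for levels (3 residual degrees of freedom) and a linear condition by time term for slopes (2). The eBayes step drew each gene's spread toward that of all genes, with 5.11 prior degrees of freedom for levels and 8.7 for slopes. P-values were Benjamini-Hochberg adjusted over 14480 genes, at a threshold of 0.05, and no single list was adjusted alone. They measure only the scatter between DRB times, of the gene and as shared over genes, which may be technical. Array or culture batch cannot be told apart from condition. The pairing comes from the DRB time in the labels: deviations from the condition means of same-time arrays correlated at 0.768, 0.519, 0.485 and 0.696 across genes, in order of time, and the highest with an array of another time were 0.41, 0.432, 0.605 and 0.66. Fits were tested on simulated data.

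Gene lists (28, 861 entries, 751 matched to a probe set), the comparison itself and the rule for named genes were chosen with earlier results of these data known. The rule names UPF1, any member of the NMD, ER, ATF4 and amino acid lists, the 10 highest and lowest called level and slope differences, and the 3 members with the largest statistics of each other list. FICD, TRIM5, EIF2A and RAD9A were named after their promoters were searched. Alternatives in scaling, filter, probe set, log scale, spread and pairing, and each pair left out, are given below.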

Additional observations from a re-analysis of the deposited data

Results flagged for a closer look

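The difference between the groups changed after DRB, by the test of the condition by time term, for the following genes of the text. Positive slope differences (tunicamycin minus UPF1-depleted, log2 per hr) were 0.92 for TIFA, 0.63 for XBP1, 0.62 for RND3, 0.59 for TCIM, 0.55 for AUNIP, TIMM9 and TIGD1 each (0.552, 0.546 and 0.545), 0.54 for CMTR2, 0.53 for YAE1 and MRPS31, 0.46 for RAB39B, 0.43 for CLK1 (0.425), 0.41 for NFIL3, 0.33 for WDR43, 0.32 for DNAJB9, 0.27 for TSLP and 0.25 for CEBPG (0.245). Negative ones were -0.73 for DDIT4, -0.65 for EGR1, -0.60 for RASSF10, -0.59 for SESN2 (-0.585), -0.58 for CHAC1 (-0.575), -0.51 for KIAA0754, -0.46 for DUSP1 and B4GALT5, -0.39 for TRIB1 and HES1, and -0.32 for FICD. NFIL3 did not pass without the pair at 0 hr (0.18, adjusted p = 0.952) or at 3 hr (adjusted p = 0.0821). TSLP passed without the pair at 0 hr but not without those at 1.5, 3 and 4.5 hr (adjusted p = 0.0665, 0.0672 and 0.556), and FICD not without that at 0 or 4.5 hr (adjusted p = 0.12 and 0.117).

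For 4 genes 1 of the 4 paired differences stood far from the other 3, a distance that chance gives for about 1 in 20 groups of 4. All genes named in the text were searched, 130 with called levels among them. At that rate chance alone gives several such genes. At 0 hr the tunicamycin minus UPF1-depleted difference of EIF2AK3 was 1.56, against 0.96 to 1.03 at the later times, that of CROCCP2 was -1.18, against -2.33 to -2.13, and that of FKBP14 was -0.17 (-0.175), against -0.55 to -0.50. For SELENOK the pair at 4.5 hr gave 0.64, against 0.43 to 0.45 at the others.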

How the results depend on the processing

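All called levels and slopes of genes named in the text kept their direction when any 1 pair was left out (130 levels and 28 slopes), and 93 levels and 17 slopes passed each time. The numbers of genes with a higher and a lower level were 603 to 1774 and 1347 to 2566 with a pair left out, and those with a higher and a lower slope 119 to 230 and 28 to 153. Without the pairing by DRB time as a block, 577 genes were higher and 1543 lower in level, and 91 higher and 9 lower in slope; 45 level calls and 15 of the 28 slope calls of named genes were lost. The sensors and factors then had 3 higher, ER-associated degradation 3 higher and 3 lower, tRNA synthetases 2 higher, other NMD targets 3 lower and NMD factors 0 lower. Higher and lower slopes numbered 60 and 10 after quantile normalization, 135 higher with centring on the ribosomal protein genes, 408 and 80 with the filter at the 60th percentile, 452 and 98 on log2(signal + 16), 713 and 185 with trend and robust in eBayes, and 425 and 62 with all 20 arrays in the fit. The median of a gene's probe sets turned ATF6 (-0.22), SLC7A11 (-0.27, adjusted p = 0.0452), DHX34 (0.21), CROCCP2 (0.11), the level of DUSP1 (0.49) and the slope of DNAJB9 (-0.081). Leaving out _s_at and _x_at probe sets turned CROCCP2 (0.11) and the DNAJB9 slope (-0.14). The cause was not tested. UPF1 was lower in the depleted cells in every alternative but the one without _s_at and _x_at probe sets, which leaves it no value. The change from 0 to 4.5 hr, a value without a test, had the sign of every slope named. The labels give no batch.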

Other observations

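Further lists gave these counts in the comparison of levels, beside 12% higher and 18.3% lower among all genes. Among splicing regulators with poison exons 4 of 35 tested genes were higher in tunicamycin and 1 lower (median 0.07), and among genes of mitosis 7 of 35 were higher and 3 lower (median 0.08). ER secretory and translocon genes had 4 of 35 higher and 7 lower (median -0.10), shares near the 12% and 18.3% of all genes. Interferon-stimulated genes had 1 of 27 higher and 4 lower, and 1 of 12 markers of other cell types was higher.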
